A study of Mus musculus with 32 samples.

Results

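The insulin-like growth factor (IGF) axis was examined through 10 of the 22850 genes of the deposited expression table, chosen by symbol. They comprised 2 ligands (Igf1, Igf2), 3 receptors (Igf1r, Igf2r, Insr), 1 receptor substrate (Irs2) and 4 secreted binding proteins (Igfbp3, Igfbp4, Igfbp5, Igfbp7). All 10 were present in the table. They were measured in pancreatic islet cells sorted from βVEGF-A mice that also carried a green fluorescent reporter, in which 32 libraries fell into 9 groups. The mice were on a C57BL/6 background, and all groups, controls included, carried the same 3 transgenes. These were rtTA under the rat insulin promoter (RIP-rtTA), human VEGF-A under a tetracycline operator (TetO-VEGF-A) and GFP under the mouse Ins1 promoter (MIP-GFP). Doxycycline (Dox) in the drinking water therefore switched on VEGF-A in β cells only as far as the insulin promoter is confined to them. Young adult mice received no Dox (No Dox), Dox for 1 week (1wk Dox), or Dox for 1 week followed by 1 week of withdrawal (1wk WD). At each time point endothelial cells (ECs) were sorted by CD31 and macrophages (MΦs) by CD11b. β cells were sorted by GFP from the cells negative for both. The groups held 4 No Dox, 5 1wk Dox and 3 1wk WD libraries of β cells, 4, 1 and 5 of ECs, and 4, 2 and 4 of MΦs. Islets of several mice were pooled for each sample, and the labels do not tie libraries to animals, so the tests measure the spread between libraries.

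IGF-1 and IGF-2 are secreted growth factors that signal through the IGF-1 receptor, a tyrosine kinase closely related to the insulin receptor. Both receptors phosphorylate insulin receptor substrates, which engage the PI3K-Akt pathway and restrain FoxO transcription factors. In β cells the substrate IRS-2 is known for its role in maintaining β cell mass. The IGF-2 receptor carries no kinase and clears IGF-2 by delivering it to lysosomes. Binding proteins hold IGFs in the extracellular space and can either limit or prolong their action. Macrophages, stromal cells and ECs are all known sources of IGF-1 or its binding proteins.

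Each value below is a score: a read count normalised by the trimmed mean of M values (TMM), deposited as a whole number with a lowest value of 1. Division of scores by gene length is not stated in the sources used here, so levels are compared between samples and never between genes. Fold changes are on the log2(score + 1) scale and are given ± SE. A change was called when it reached 2-fold with an adjusted p below 0.05, both from limma with Benjamini-Hochberg adjustment over every gene tested. The sums of scores per library ranged from 23465985 to 53441769, which is not a read depth, and the depth behind each score is unknown. None of the 10 defining markers of β cells, ECs or MΦs was at the lowest score throughout its own sorted population. Libraries differed in markers of their own and of other cells. The 10 β cell markers made up 22.4% and 16.3% of the scores of β cell No Dox replicates 1 and 2, but 3.37% and 1.48% of replicates 3 and 4, and ran from 2.19% to 10.2% of the libraries at 1wk Dox and from 2.3% to 28.0% of those after withdrawal. Acinar markers made up 28.3% and 23.6% of the scores of β cell No Dox replicates 3 and 4, 23.8% and 5.86% of MΦ No Dox replicates 2 and 4, and at most 5.51% of any other No Dox library. Summed scores of 12 pericyte and fibroblast markers were 1147 and 1208 in β cell No Dox replicates 1 and 2, but 163411 and 573402 in replicates 3 and 4. In the other β cell libraries the sums ran from 113174 to 531489 with Dox (1wk Dox) and from 27487 to 391330 after withdrawal. A change in the number of cells of a type within a sorted population and a change in RNA per cell cannot be told apart in these bulk libraries.

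**Figure D1:**
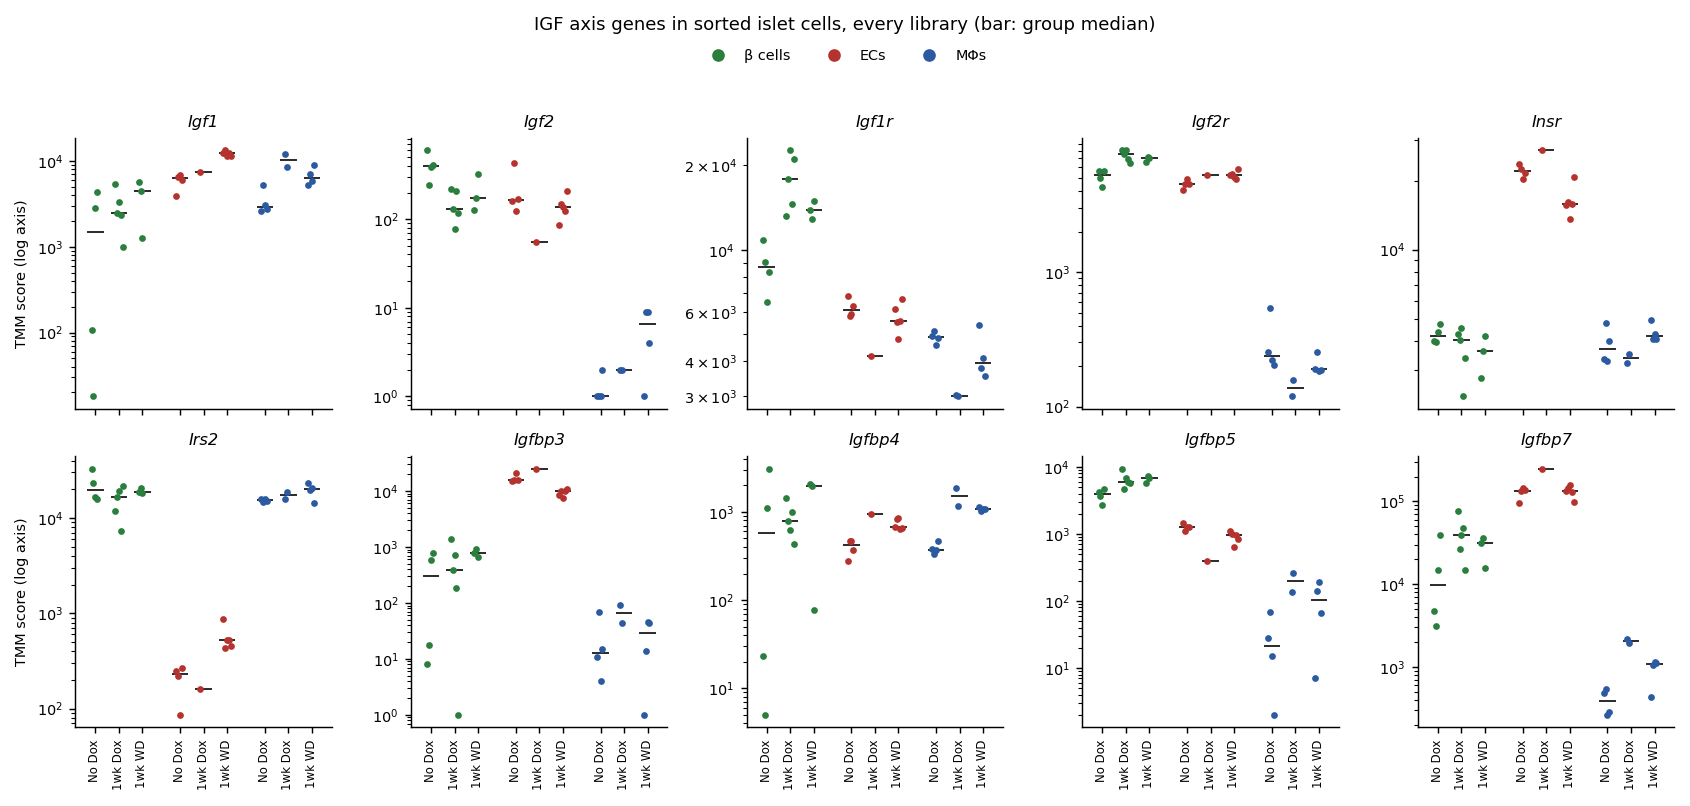
Scores of the 10 IGF axis genes in all 32 libraries, on a log axis, by cell type (colour) and time point, with a bar at each group median. Irs2 was low in ECs, Igf2 and Igf2r were low in MΦs, and Igfbp3 and Igfbp7 were high in ECs at every time point.

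Without Dox, the genes of the axis were divided between the 3 cell types. Of the 10 genes, 5 were called between β cells and ECs, 4 between β cells and MΦs and 7 between ECs and MΦs. The corresponding shares over all 16380 genes tested were 37.7%, 43.2% and 33.5% in the same order, so that differences of this kind were common among all genes. Irs2, the substrate shared by insulin and IGF-1 receptors, had scores of 33005, 23074, 16568 and 15842 in β cells and 15790, 14877, 15759 and 15235 in MΦs. ECs held 246, 218, 86 and 269, far below every β cell and MΦ library. The difference between β cells and ECs was 112-fold (6.81 ± 0.34, adjusted p = 6.25e-08). Between ECs and MΦs it was −6.35 ± 0.34 (adjusted p = 3.64e-08). Irs2 in β cells and MΦs differed by 0.46 ± 0.34 (95% interval −0.28 to 1.19), which was not called.

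The receptors followed a different order. Insr, the insulin receptor, ranged from 20351 to 23700 in ECs, from 3968 to 4725 in β cells and from 3259 to 4783 in MΦs. ECs were 5.17-fold above β cells (adjusted p = 1.80e-07) and 5.79-fold above MΦs (adjusted p = 4.30e-08), and the ranges of β cells and MΦs overlapped. Igf2r, the clearing receptor for IGF-2, ranged from 4296 to 5620 in β cells and from 4067 to 4931 in ECs. In MΦs it was 255, 537, 221 and 205, which placed β cells 18.1-fold and ECs 16.0-fold above them (adjusted p = 2.74e-07 and 1.82e-07). Igf1r, the signalling IGF receptor, was the most evenly spread of the receptors. Its mean score was 8678 ± 1801 (SD, n = 4) in β cells, 6196 in ECs and 4872 ± 238 (SD, n = 4) in MΦs. The step from MΦs to β cells was 1.75-fold (adjusted p = 0.000624), below the 2-fold minimum, which it reached with quantile normalization (1.16, adjusted p = 6.23e-06) and without β cell replicates 3 and 4 (1.02, adjusted p = 3.31e-05). Igf1r differed by 0.46 ± 0.15 between β cells and ECs (adjusted p = 0.0206) and by 0.34 ± 0.15 between ECs and MΦs (adjusted p = 0.0786). Igf2r differed by 0.18 ± 0.26 between β cells and ECs and Insr by 0.16 ± 0.14 between β cells and MΦs, neither called.

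Of the ligands, Igf2 was measured at 603, 242, 388 and 408 in β cells and at 161, 427, 124 and 170 in ECs, while MΦs were at 1, 1, 1 and 2. The β cell and EC scores overlapped (0.99 ± 0.48, adjusted p = 0.104), and without EC No Dox replicate 2 the difference was called (1.37, adjusted p = 0.0368). Both stood above every MΦ library (adjusted p = 3.24e-07 and 5.43e-07), and with MΦs at the lowest score of the table no fold is given. Igf1 was present in ECs at 3900 to 6831 and in MΦs at 2586 to 5271. The difference between ECs and MΦs, 0.79 ± 1.38, was not called. That error came from a fit of β cells, ECs and MΦs together and so carried the spread of the β cell libraries. In β cell libraries Igf1 was 107 and 18 in replicates 1 and 2 and 2854 and 4359 in replicates 3 and 4, the same split as the pericyte and fibroblast markers. It was called lower in β cells than in ECs (−3.83 ± 1.38, adjusted p = 0.0371), a call that was lost without β cell No Dox replicate 1 (−3.20, adjusted p = 0.0996), without replicate 2 (−2.37, adjusted p = 0.0730) or without any 1 EC library (adjusted p = 0.0589 to 0.0764). It was also lost with no filter on low scores (adjusted p = 0.0787), in a fit of only the compared groups (adjusted p = 0.0812), without MΦ No Dox replicates 2 and 4 (adjusted p = 0.0629) and without β cell replicates 1 and 2 (−0.69, adjusted p = 0.0962). Against MΦs Igf1 was not called lower in β cells (−3.04 ± 1.38, adjusted p = 0.0807) with all libraries, but was without β cell replicate 3 (adjusted p = 0.0291), replicate 4 (adjusted p = 0.0129) or both (−6.18, adjusted p = 4.99e-06).

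Of the binding proteins, Igfbp3 and Igfbp7 were highest in ECs. Igfbp3, the main carrier of circulating IGFs, ranged from 15162 to 20682 in ECs, but was 8, 18, 597 and 769 in β cells and 11, 69, 4 and 15 in MΦs. ECs were called above both (adjusted p = 0.000686 and 7.09e-05), and β cells against MΦs were not (2.55 ± 1.34, adjusted p = 0.126) with all libraries. Without β cell No Dox replicate 1 the difference between β cells and MΦs was 3.68 and was called (adjusted p = 0.0249), as it was without replicates 1 and 2 (5.397, adjusted p = 0.000164). Igfbp7, a low-affinity binding protein of vascular basement membrane, ranged from 96602 to 147085 in ECs, from 3143 to 39343 in β cells and from 263 to 541 in MΦs, and all 3 differences were called. Igfbp5, a binding protein that also attaches to extracellular matrix, was 4149, 3727, 2664 and 4709 in β cells. It ranged from 1099 to 1463 in ECs and from 2 to 69 in MΦs, and β cells and ECs were each called above MΦs (7.72 ± 0.72 and 6.16 ± 0.72). β cells were not called above ECs for Igfbp5 (1.56 ± 0.72, adjusted p = 0.0927) with all 3 cell types in the fit, but were at the same fold in a fit of only the compared groups (adjusted p = 0.000252) and without MΦ No Dox replicates 2 and 4 (adjusted p = 0.000537). They were also called with a pseudocount of 20 (1.55, adjusted p = 0.00355) and with quantile normalization (1.68, adjusted p = 0.0348). Igfbp4, an inhibitory binding protein, did not order the cell types. Its scores were 23, 5, 1116 and 3096 in β cells, 277 to 465 in ECs and 332 to 470 in MΦs, and no pair of cell types was called (β cells −1.37 ± 1.57 against each, ECs against MΦs 0.005 ± 1.57). All 3 cell types shared the fit, so the error of ECs against MΦs also carried the spread of the β cell libraries. Without β cell No Dox replicates 1 and 2, Igfbp4 in β cells changed from a value below both other cells to a called value above them (2.27 against ECs, adjusted p = 0.00061, and 2.27 against MΦs, adjusted p = 0.00051). Without replicates 3 and 4 it was called lower than both (−5.01 against ECs, adjusted p = 1.09e-05, and −5.00 against MΦs, adjusted p = 9.91e-06). In that second fit, 7 rather than 4 members were called between β cells and MΦs, while the share of all genes called was 49.3% rather than 43.2%.

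In β cells, 1 week of VEGF-A induction left none of the 10 genes called by limma, beside 2 of 16346 genes tested (0.0122%), Sprr1a and Csmd3, which are named here after their values were seen. At an unadjusted p below 0.05, 5 of the 10 passed, beside 6.99% of all genes, and 3 of these also reached 2-fold, beside 4.04% of all genes. The libraries of the groups did not overlap for 4 of 10 members, Igf1r, Igf2r, Igfbp5 and Igf2, and for 2.55% of all genes. Igf1r was 10865, 9023, 6511 and 8311 without Dox and 13198, 17861, 22712, 14551 and 21118 at 1wk Dox. Every 1wk Dox library thus lay above every No Dox library, with means of 8678 ± 1801 (SD, n = 4) and 17888 ± 4088 (SD, n = 5). The fold was 2.05 (1.04 ± 0.21, adjusted p = 0.269), and with quantile normalization Igf1r was called (1.28, adjusted p = 0.0250), beside 0.0367% of all genes. At 1wk WD Igf1r was 13817, 12929 and 14917, again above all No Dox libraries, a 1.62-fold difference (0.70 ± 0.24, adjusted p = 0.575).

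Igf2r, the receptor that removes IGF-2, was 5601, 4978, 4296 and 5620 without Dox, 8065, 7577, 8024, 6915 and 6506 at 1wk Dox, and after withdrawal (1wk WD) it was 6589, 7201 and 7070. The libraries of both later time points lay above all No Dox libraries. The differences were smaller than for Igf1r, 1.45-fold at 1wk Dox (0.54 ± 0.14, adjusted p = 0.369) and 1.36-fold at 1wk WD (0.45 ± 0.16, adjusted p = 0.584). Igfbp5 was 4149, 3727, 2664 and 4709 without Dox and 9432, 4715, 6800, 5926 and 5769 at 1wk Dox, where the lowest 1wk Dox library exceeded the highest No Dox library by only 6 score units. Its 1wk WD scores were 5774, 7281 and 6834. The fold was 1.70 at 1wk Dox (0.77 ± 0.22, adjusted p = 0.455) and 1.77 at 1wk WD (0.82 ± 0.25, adjusted p = 0.561).

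The ligand Igf2 lay in the opposite direction. Its scores of 603, 242, 388 and 408 without Dox stood above the 218, 129, 78, 206 and 116 of 1wk Dox, a 2.79-fold lower value (−1.48 ± 0.43, adjusted p = 0.455). At 1wk WD it was 126, 172 and 326, which overlapped the No Dox range (−1.02 ± 0.49, adjusted p = 0.610). Between 1wk WD and No Dox none of the 10 genes was called, as for all 16346 genes (0%), although 3 members had an unadjusted p below 0.05, beside 8.17% of all genes. The groups did not overlap for 3 members, Igf1r, Igf2r and Igfbp5, beside 6.44% of all genes. Both comparisons use the same 4 No Dox libraries. No member was called between 1wk WD and 1wk Dox, where the background was again 0% and none had an unadjusted p below 0.05, beside 6.31% of all genes. Igf1r differed there by −0.34 ± 0.23 (95% interval −0.85 to 0.17) and Igf2 by 0.46 ± 0.47 (95% interval −0.56 to 1.48). The other differences were Igf2r −0.09 ± 0.15, Insr −0.06 ± 0.23, Irs2 0.42 ± 0.36 and Igfbp5 0.05 ± 0.24. Those of Igf1 (0.33 ± 1.498), Igfbp3 (2.20 ± 2.04), Igfbp4 (−0.21 ± 1.83) and Igfbp7 (−0.45 ± 0.77) had larger errors.

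For the 4 genes whose β cell groups did not overlap at 1wk Dox, the size of the difference was recomputed on either side of the split of the No Dox libraries, where the direction is fixed by the lack of overlap. Pericyte and fibroblast markers, acinar markers and β cell markers all set replicates 1 and 2 apart from replicates 3 and 4. Without No Dox replicates 3 and 4 the difference in Igf1r was 0.82 (adjusted p = 0.0881), and without replicates 1 and 2 it was 1.25 (adjusted p = 0.101). Igf2 stood at −1.45 and −1.51, Igf2r at 0.49 and 0.59 and Igfbp5 at 0.69 and 0.84 in the same fits. With a pericyte and fibroblast index as covariate, the Igf1r difference at 1wk Dox was 1.23 ± 0.22 and was called (adjusted p = 0.00824), as were 2.15% of all genes in that fit. The same covariate left Igf2r at 0.55 (adjusted p = 0.121), Igfbp5 at 0.77 (adjusted p = 0.155) and Igf2 at −1.45 (adjusted p = 0.183). At 1wk WD it left Igf1r at 0.88 (adjusted p = 0.166).

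Summed scores of the 10 acinar markers did not overlap between these β cell groups, at 36803 to 14152052 without Dox and 216 to 23219 at 1wk Dox (median log2 difference −9.26, 10 of 10 with an unadjusted p below 0.05 and none called), and their part in these results was not tested.

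**Figure D2:**
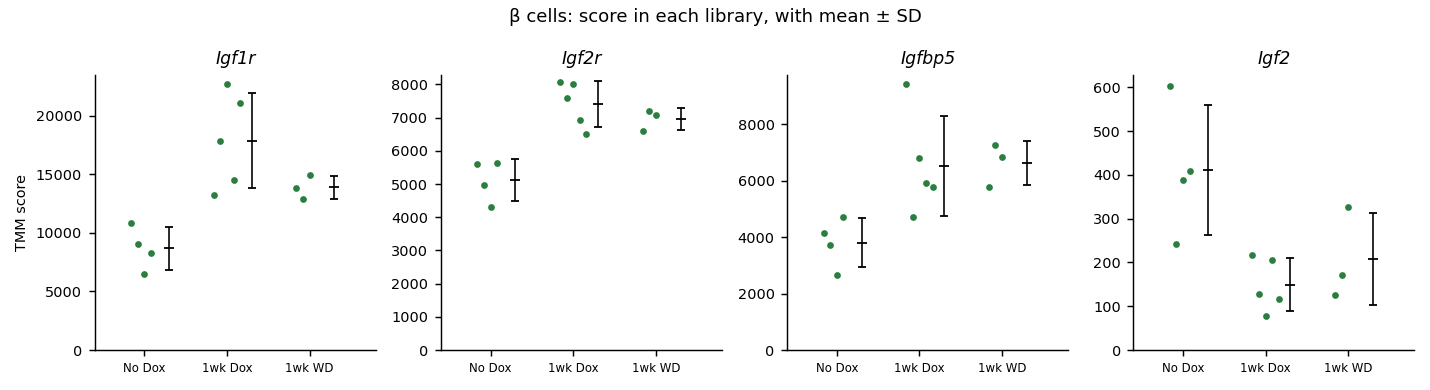
Scores of Igf1r, Igf2r, Igfbp5 and Igf2 in each β cell library (points) at the 3 time points, with mean ± SD beside them on linear axes from 0. For Igf1r, Igf2r and Igfbp5 all 1wk Dox and 1wk WD libraries lay above all No Dox libraries, and for Igf2 all 1wk Dox libraries lay below them.

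The promoters of the receptor genes whose β cell scores did not overlap are shown as the 250 bases before the RefSeq start site, on the gene's own strand. They come from GRCm38.p6, while the deposited gene coordinates are on mm9. In mm9 Igf1r spans chr7:75097713-75371484 on the plus strand and Igf2r spans chr17:12875272-12962530 on the minus strand. Capitals mark matches, on either strand, to a GC box (GGGCGG), an AP-1 site (TGANTCA), a FoxO site (GTAAACA), an E-box (CACGTG) or a PU.1 site (GAGGAA). No motif of this set contains another, and the shares of all 32817 windows of this length with a match are 32.7%, 6.75%, 3.16%, 6.02% and 23.3% in the same order. The Igf1r window is chr7:67952007-67952256 and the Igf2r window is chr17:12769707-12769956.
Igf1r promoter: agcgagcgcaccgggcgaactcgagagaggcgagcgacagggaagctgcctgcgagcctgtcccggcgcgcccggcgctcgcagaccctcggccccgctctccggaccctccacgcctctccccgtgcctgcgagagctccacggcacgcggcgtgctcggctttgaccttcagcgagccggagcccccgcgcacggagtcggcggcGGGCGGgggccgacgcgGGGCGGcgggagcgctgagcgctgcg
Igf2r promoter: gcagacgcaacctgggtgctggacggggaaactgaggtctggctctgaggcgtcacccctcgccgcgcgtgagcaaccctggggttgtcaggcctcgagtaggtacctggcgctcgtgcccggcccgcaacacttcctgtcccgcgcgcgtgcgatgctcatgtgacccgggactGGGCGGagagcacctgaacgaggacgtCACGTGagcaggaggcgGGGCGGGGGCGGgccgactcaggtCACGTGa
The Igf1r window held 2 GC boxes, starting 43 and 26 bases before the start site, with 77.6% G and C bases. The Igf2r window held 3 GC boxes and 2 E-boxes and 69.2% G and C bases, beside a median of 52.4% over all windows. A match describes letters and does not show binding.

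Igf1, Igfbp4 and Igfbp7 were lowest, within each β cell group, in the libraries with the lowest pericyte and fibroblast marker sums. No Dox replicates 1 and 2, whose sums were nearly equal, stood in reverse. Igf1 was 107, 18, 2854 and 4359 without Dox, and 5439, 2509, 3294, 2335 and 1001 at 1wk Dox. At 1wk WD it was 5693, 4530 and 1251. Igfbp4 was 23 and 5 in No Dox replicates 1 and 2 and 1116 and 3096 in replicates 3 and 4, and at 1wk WD it was 2046, 1975 and 77, with the 77 in the library whose marker sum was 27487. That library, 1wk WD replicate 3, carried a later library number than all other β cell libraries, and the part of the number range was not tested. Igfbp7 was 4676, 3143, 14719 and 39343 without Dox and 76555, 26469, 39518, 48394 and 14860 at 1wk Dox. Igfbp3 was 8, 18, 597 and 769 without Dox, 1 to 1388 at 1wk Dox, and after withdrawal 673 to 915. It did not follow the pericyte and fibroblast markers in all groups, since 1wk WD replicate 3 had a score of 673 at a marker sum of 27487 and replicate 1 had 773 at 391330. At 1wk Dox Igfbp3 was 1388, 393, 712, 182 and 1 in replicates 1 to 5, in which the summed scores of the 10 EC markers were 59018, 19858, 28073, 6747 and 1569 and stood in the same order. The Igf1 scores at 1wk Dox stood in that order too. At 1wk WD the EC marker sums were 4471, 6828 and 18053 in replicates 1 to 3. Igfbp3, at 773, 915 and 673, did not follow them there, nor did Igf1. Those sums ran from 1709 to 7674 without Dox, and their part in these results was not tested.

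The differences of these 4 genes between No Dox and 1wk Dox depended on which No Dox libraries were used. With all libraries Igf1 was 2.67 ± 1.38 higher at 1wk Dox (adjusted p = 0.738) and Igfbp7 was 1.89 ± 0.70 higher (adjusted p = 0.640). Igfbp4 was 2.40 ± 1.68 higher and Igfbp3 0.85 ± 1.87 higher, neither called. Without No Dox replicates 3 and 4, Igf1 (5.81, adjusted p = 0.00155), Igfbp4 (6.04, adjusted p = 0.00797) and Igfbp7 (3.22, adjusted p = 0.00553) were called higher, beside 7.36% of all genes in that fit. Without No Dox replicates 1 and 2, none of them was called (0.487% of all genes), and Igf1 stood at −0.48, Igfbp4 at −1.24 and Igfbp7 at 0.57. With the pericyte and fibroblast index as covariate they were −0.10, −1.02 and 0.59, and Igfbp3 was −1.73. At 1wk WD, Igf1 was 2.99 ± 1.57 higher with all libraries (adjusted p = 0.614), was called without No Dox replicates 3 and 4 (6.14, adjusted p = 0.00199, beside 8.74% of all genes), as were Igfbp4 (5.83, adjusted p = 0.0138) and Igfbp7 (2.76, adjusted p = 0.0177), and stood at −0.15 without replicates 1 and 2. With all libraries Igfbp3 (3.05 ± 2.13), Igfbp4 (2.19 ± 1.91) and Igfbp7 (1.44 ± 0.80) were not called at 1wk WD. Whether β cells or other cells in the sort carried these transcripts was not tested.

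**Figure D3:**
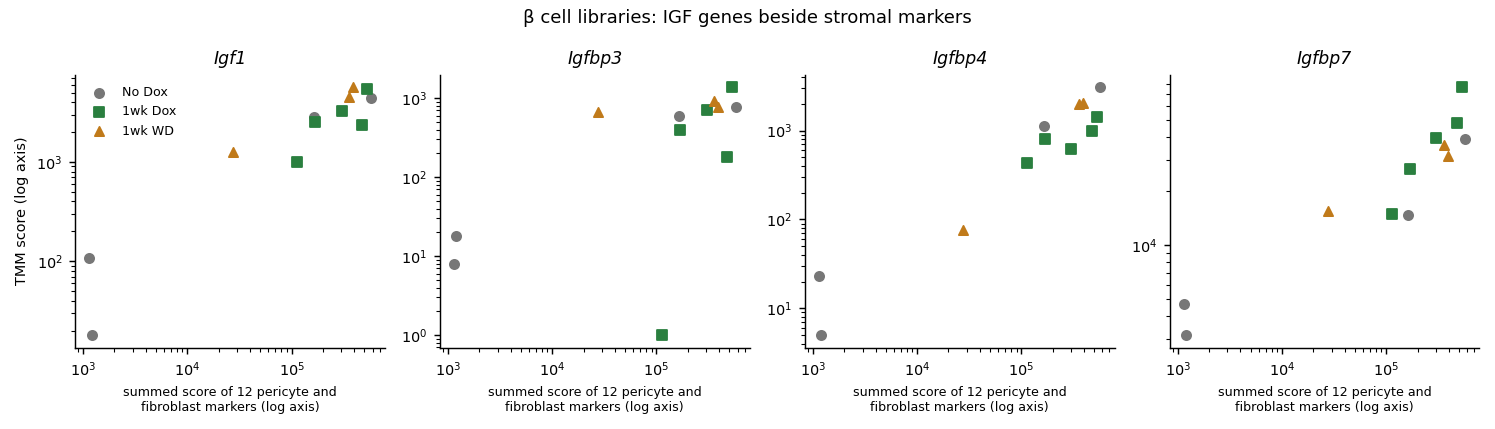
Scores of Igf1, Igfbp3, Igfbp4 and Igfbp7 in the 12 β cell libraries against the summed score of 12 pericyte and fibroblast markers, both on log axes, with a symbol for each time point. The No Dox libraries with marker sums of 1147 and 1208 sit at the lower left, except that for Igfbp3 a 1wk Dox library had the lowest score of 1.

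The insulin receptor and its substrate were not called in β cells. Insr was 4010, 3968, 4384 and 4725 without Dox and 4272, 4023, 4563, 2290 and 3379 at 1wk Dox, and the groups overlapped (−0.24 ± 0.21, 95% interval −0.71 to 0.22). Irs2 was 33005, 23074, 16568 and 15842 without Dox and 11892, 16526, 19281, 7292 and 21682 at 1wk Dox (−0.56 ± 0.33, 95% interval −1.29 to 0.16). At 1wk WD Irs2 held 18534, 20441 and 18452, inside the No Dox range (−0.14 ± 0.38), and Insr held 2748, 3601 and 4199 (−0.30 ± 0.24).

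In ECs, Igf1 and Irs2 rose between No Dox and 1wk WD, the 2 of 10 members called beside 250 of 14167 genes (1.76%). Igf1 was 3900, 6468, 6831 and 6088 without Dox and 12325, 13462, 11405, 12577 and 11606 at 1wk WD, so that the lowest 1wk WD library stood well above the highest No Dox library. The mean rose from 5822 ± 1317 (SD, n = 4) to 12275 ± 823 (SD, n = 5), a 2.15-fold change (1.11 ± 0.15, adjusted p = 0.00335). Irs2 was 246, 218, 86 and 269 without Dox and 863, 428, 524, 529 and 459 at 1wk WD. It rose 2.88-fold (1.53 ± 0.32, adjusted p = 0.0223), also without overlap. The groups did not overlap for 4 members, these 2 with Igfbp3 and Igfbp4, and for 10.7% of all genes.

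Igfbp3 and Igfbp4 had adjusted p values below 0.05 without reaching 2-fold, in opposite directions. Igfbp3 was 15162, 15628, 20682 and 15919 without Dox and 8491, 9967, 7368, 10027 and 10772 at 1wk WD. Its mean went from 16848 ± 2575 (SD, n = 4) to 9325 ± 1372 (SD, n = 5), 1.81-fold lower (−0.85 ± 0.13, adjusted p = 0.00644). Igfbp4 was 277, 464, 465 and 369 without Dox and 680, 830, 859, 645 and 650 at 1wk WD, 1.88-fold higher (0.91 ± 0.18, adjusted p = 0.0201). Both binding proteins had complete separation of the groups.

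Insr, the receptor highest in ECs, was 23700, 22480, 20351 and 21709 without Dox and 15737, 16218, 13568, 15779 and 20726 at 1wk WD. A single 1wk WD library overlapped the No Dox range, and the 1.36-fold lower level was not called (−0.44 ± 0.12, adjusted p = 0.0561). Igfbp5 was 1463, 1099, 1256 and 1265 without Dox and 1115, 998, 631, 979 and 839 at 1wk WD (−0.50 ± 0.17, adjusted p = 0.117). Igf1r (−0.12 ± 0.11), Igf2 (−0.53 ± 0.36) and Igfbp7 (0.05 ± 0.16) were not called. For Igf1r the 95% interval ran from −0.35 to 0.12 and for Igfbp7 from −0.30 to 0.40. Igf2r was 0.23 ± 0.09 higher (adjusted p = 0.176).

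The calls for Igf1 and Irs2 were lost under several settings. With no filter on low scores, at the same folds, Igf1 had an adjusted p = 0.0502 and Irs2 an adjusted p = 0.155, and without the variance trend Irs2 had an adjusted p = 0.0730. Without EC No Dox replicate 1, which had the lowest Igf1 score, Igf1 was 1.90-fold higher (adjusted p = 0.00349) and Irs2 was 3.15-fold higher (adjusted p = 0.0527), and neither was called. Irs2 also lost its call without EC No Dox replicate 2 (adjusted p = 0.0529), while Igfbp4 reached 2-fold and was called without EC No Dox replicate 2 (adjusted p = 0.0350) or replicate 3 (adjusted p = 0.0426). Pericyte and fibroblast markers also differed between these groups, with summed scores of 5898 to 13446 without Dox and 17673 to 73359 at 1wk WD. With their index as covariate no gene of the table was called (0%), the members included (Igf1 0.90, adjusted p = 0.322, and Irs2 0.81, adjusted p = 0.646), and the covariate was itself separated by group. The 10 acinar markers were all called lower in ECs at 1wk WD, and their part in these results was not tested.

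**Figure D4:**
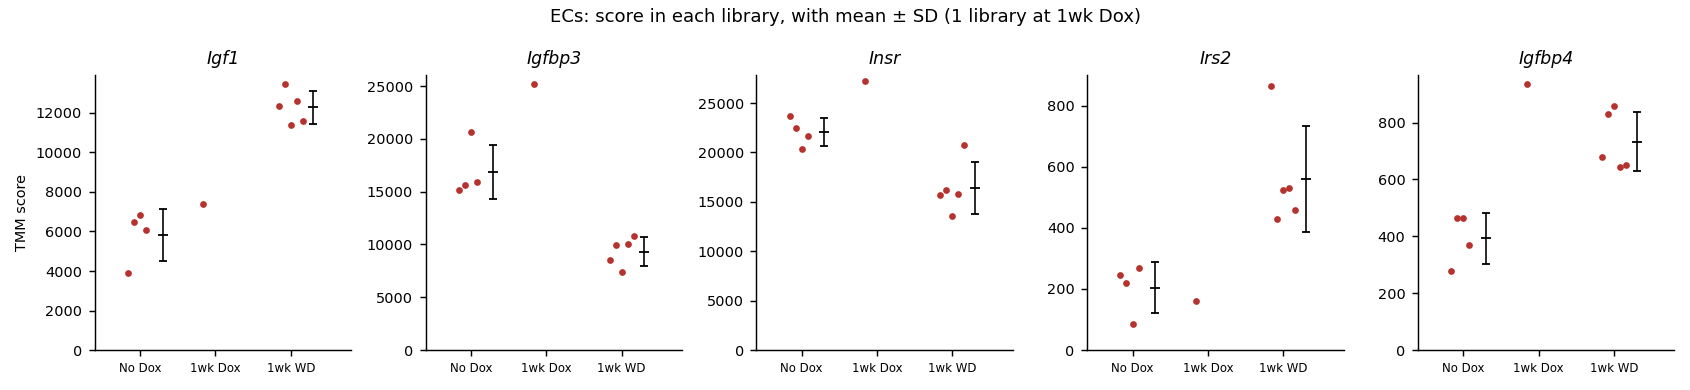
Scores of Igf1, Igfbp3, Insr, Irs2 and Igfbp4 in each EC library at the 3 time points on linear axes from 0, with mean ± SD beside the groups of more than 1 library. Igf1 and Irs2 lay above the No Dox libraries in all 5 libraries at 1wk WD, and Igfbp3 lay below them.

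The single EC library at 1wk Dox allowed no test. Of the 10 members, 3 differed from the No Dox mean by 2-fold or more, as did 10.7% of 14047 genes. Igfbp4 scored 936 against 277 to 465 without Dox, which is 2.43-fold higher. Igf2 scored 55 against 124 to 427, 3.5-fold lower, and Igfbp5 scored 394 against 1099 to 1463, 3.2-fold lower. Igfbp7 at 249900 and Igfbp3 at 25208 lay above their No Dox ranges by less than 2-fold. With quantile normalization the log2 difference of Igfbp7 was 1.25, which is past 2-fold. For Igfbp3 and Insr (27207) the 1wk Dox library lay above the No Dox range while most 1wk WD libraries lay below it. Igf1 at 7382 was just above the No Dox range, Igf1r at 4184 was below it and Irs2 at 162 was within it. This library carried a library number from a later range than the No Dox libraries, and the number range and the time point cannot be told apart.

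In MΦs, Igf1, Igfbp4 and Igfbp7 rose at 1wk Dox. These 3 were called among 9 members tested, since Igf2 at scores of 1 to 2 failed the filter on low values, beside 2.26% of all 15014 genes. Igf1 was 2586, 5271, 3063 and 2793 without Dox and 12258 and 8551 at 1wk Dox, a 3.11-fold rise (1.64 ± 0.28, adjusted p = 0.0101). Igfbp4 was 376, 332, 371 and 470 without Dox and 1854 and 1151 at 1wk Dox, a 3.79-fold rise (1.92 ± 0.23, adjusted p = 0.00167). Igfbp7 was 490, 541, 263 and 287 without Dox and 2203 and 1930 at 1wk Dox, a 5.47-fold rise (2.45 ± 0.40, adjusted p = 0.00920). For all 3 genes both 1wk Dox libraries exceeded every No Dox library. Markers of other cells moved with the same groups. Summed scores of the 10 acinar markers were 30162 to 12715607 in the No Dox libraries and 1114 to 3780 at 1wk Dox (median log2 difference −8.55, 5 of 10 called lower), and those of the 10 macrophage markers were 223009 to 323072 and 342994 to 422491 (median log2 difference 0.63, 1 of 10 called higher). At 1wk WD the acinar sums were 1675 to 231718 and the macrophage sums 344142 to 421233, and the part of either list in the MΦ results was not tested. With 2 libraries, separation of the groups was common, and it was met by 7 of 9 members and 30.9% of all genes.

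Igf1r and Igf2r scores lay below the No Dox range in the same libraries, and neither was called. Igf1r was 4918, 5151, 4573 and 4845 without Dox and 3040 and 2996 at 1wk Dox, 1.61-fold lower (−0.69 ± 0.16, adjusted p = 0.0355), which did not reach 2-fold. Igf2r was 255, 537, 221 and 205 without Dox and 119 and 157 at 1wk Dox, 2.05-fold lower without passing the test (−1.03 ± 0.40, adjusted p = 0.164). Insr (−0.18 ± 0.17, 95% interval −0.55 to 0.19) and Irs2 (0.16 ± 0.17, 95% interval −0.22 to 0.54) were not called. Igfbp5 scores were 28, 69, 15 and 2 without Dox and 138 and 259 at 1wk Dox (3.43 ± 1.30, adjusted p = 0.151), and Igfbp3 was at 4 to 69 and 43 to 91 (1.98 ± 1.32).

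After withdrawal, Igfbp4 was higher in MΦs than without Dox and was the only member of 9 called beside 0.626% of all genes. Its 1wk WD scores of 1145, 1031, 1083 and 1064 were close to each other and above all No Dox scores, a 2.81-fold rise (1.49 ± 0.18, adjusted p = 0.00485). Igf1 was 5298, 7037, 5838 and 8926, of which the lowest was just above the highest No Dox score of 5271. Its 2.02-fold difference had an adjusted p = 0.0512 (1.01 ± 0.23). Igfbp7 was 438, 1047, 1149 and 1119, where replicate 1 fell within the No Dox range (1.22 ± 0.32, adjusted p = 0.0864). The groups did not overlap for Igf1 and Igfbp4, 2 of 9 members, and for 9.24% of all genes. Igf1r (−0.23 ± 0.13), Igf2r (−0.47 ± 0.33), Insr (0.19 ± 0.14) and Irs2 (0.32 ± 0.14, adjusted p = 0.281) were not called. Igfbp5 was 7, 141, 193 and 66 (1.81 ± 1.06) and Igfbp3 was 1, 14, 46 and 44 (−0.02 ± 1.08), neither called. The 12 pericyte and fibroblast markers had a median log2 difference of 0.89 in this comparison, with 5 at an unadjusted p below 0.05 and none called. Their summed scores were 3268 to 6435 in MΦs without Dox and 3061 to 11828 at 1wk WD, and their part in these results was not tested.

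Between 1wk WD and 1wk Dox no MΦ member was called, beside 13 of all 15014 genes (0.0866%). At an unadjusted p below 0.05, 3 members passed, beside 9.7% of all genes. Igf1 differed by −0.62 ± 0.28 (95% interval −1.23 to −0.02), Igfbp7 by −1.23 ± 0.40 (adjusted p = 0.323) and Igf1r by 0.46 ± 0.16 (adjusted p = 0.372). The others were Igf2r (0.56 ± 0.40), Insr (0.37 ± 0.17), Irs2 (0.16 ± 0.17), Igfbp3 (−2.003 ± 1.32), Igfbp4 (−0.44 ± 0.23) and Igfbp5 (−1.62 ± 1.30). The 2 1wk Dox libraries carried numbers from the later range, which here too cannot be told apart from the time point.

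The MΦ calls at 1wk Dox were lost under several settings. At the same folds, Igf1 and Igfbp7 had adjusted p = 0.0687 and 0.0578 with no filter on low scores and adjusted p = 0.0599 and 0.0565 without the variance trend, and Igf1 had an adjusted p = 0.0586 in a fit of only the compared groups. With a replicate block none of the 3 was called (Igf1 1.80, adjusted p = 0.141, Igfbp4 2.13, adjusted p = 0.0953, and Igfbp7 2.56, adjusted p = 0.225). Leaving out 1wk Dox replicate 4 left none of the 3 called (Igf1 1.38, adjusted p = 0.341, Igfbp4 1.58, adjusted p = 0.105, and Igfbp7 2.36, adjusted p = 0.304). Leaving out 1wk Dox replicate 5 left Igfbp4 (adjusted p = 0.00649) but neither Igf1 (adjusted p = 0.0517) nor Igfbp7 (adjusted p = 0.0602). Without the acinar-rich No Dox replicates 2 and 4 all 3 were called at 1wk Dox, with Igf1 at 1.86 (adjusted p = 0.00457), beside 6.41% of all genes. At 1wk WD, Igf1 was called without these replicates (1.24, adjusted p = 0.0212, beside 2.34% of all genes) or without No Dox replicate 2 alone (adjusted p = 0.0137), with a minimum mean score of 200 (adjusted p = 0.0410) and with quantile normalization (adjusted p = 0.0480), and Igfbp7 was called without 1wk WD replicate 1 (adjusted p = 0.0191). Summed scores of the 10 EC markers in MΦs were 1858 to 2436 without Dox, 3512 to 4408 after 1 week of Dox and, following withdrawal, 2119 to 3180. With an endothelial index as covariate 0.0133% of all genes were called at 1wk Dox and no member was (Igf1 1.13, adjusted p = 0.331, Igfbp4 1.97, adjusted p = 0.113, and Igfbp7 1.34, adjusted p = 0.264), while Igfbp4 was called at 1wk WD (adjusted p = 0.00914), beside 0.36% of all genes. The EC marker sums of the No Dox and 1wk Dox MΦs did not overlap, so the markers and the time point are nearly the same split in these libraries.

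**Figure D5:**
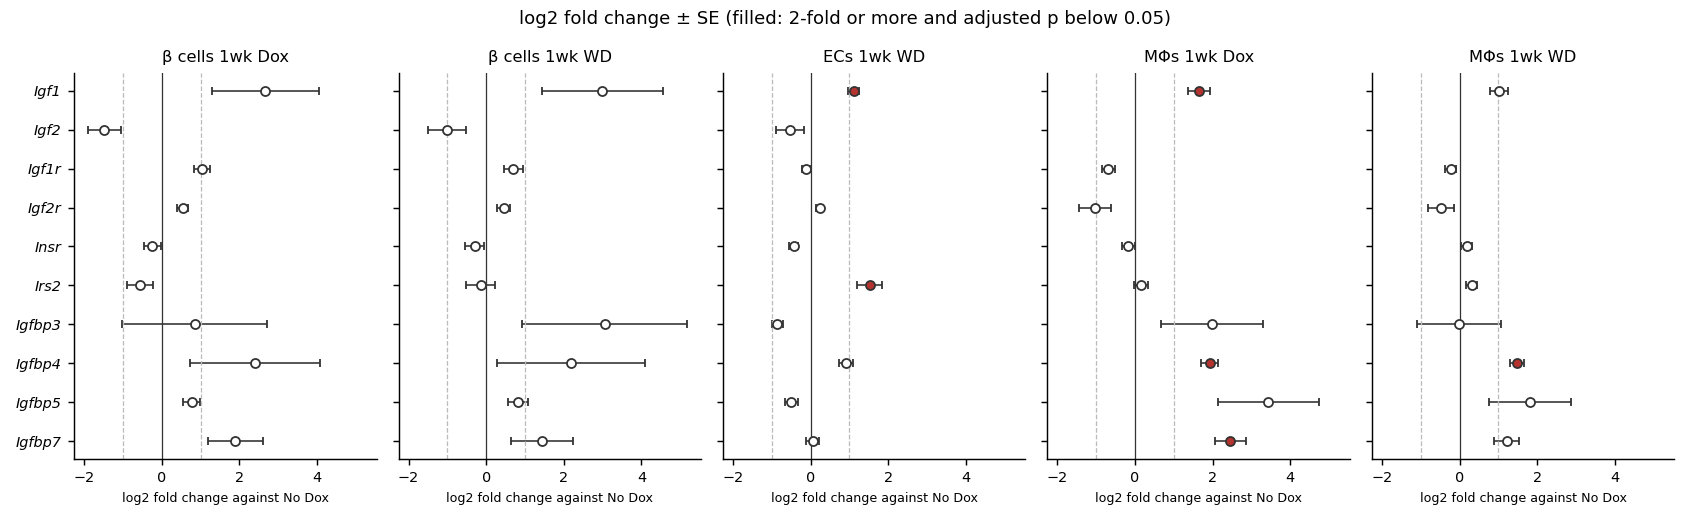
Log2 fold change ± SE against No Dox for the 10 members in 5 comparisons, with filled points for those called and dashed lines at 2-fold. Filled points appear for Igf1 and Irs2 in ECs at 1wk WD, for Igf1, Igfbp4 and Igfbp7 in MΦs at 1wk Dox and for Igfbp4 in MΦs at 1wk WD, and Igf2 was not tested in MΦs.

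Promoter windows of the 3 genes called together in MΦs are shown with the same 250 base length, build and motif set. In mm9 Igf1 spans chr10:87321010-87399792 on the plus strand, Igfbp4 spans chr11:98902558-98915706 on the plus strand and Igfbp7 spans chr5:77778265-77837070 on the minus strand. The windows are chr10:87860861-87861110, chr11:99040994-99041243 and chr5:77408046-77408295 in GRCm38.p6.
Igf1 promoter: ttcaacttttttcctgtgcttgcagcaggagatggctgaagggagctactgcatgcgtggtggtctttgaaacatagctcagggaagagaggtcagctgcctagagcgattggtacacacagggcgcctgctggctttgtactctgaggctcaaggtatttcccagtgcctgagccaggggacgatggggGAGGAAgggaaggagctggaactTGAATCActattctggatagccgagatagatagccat
Igfbp4 promoter: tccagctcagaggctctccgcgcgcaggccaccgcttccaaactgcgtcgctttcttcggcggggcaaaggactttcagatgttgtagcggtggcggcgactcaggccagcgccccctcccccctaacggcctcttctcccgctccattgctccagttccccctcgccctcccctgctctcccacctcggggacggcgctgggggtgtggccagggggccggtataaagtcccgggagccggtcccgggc
Igfbp7 promoter: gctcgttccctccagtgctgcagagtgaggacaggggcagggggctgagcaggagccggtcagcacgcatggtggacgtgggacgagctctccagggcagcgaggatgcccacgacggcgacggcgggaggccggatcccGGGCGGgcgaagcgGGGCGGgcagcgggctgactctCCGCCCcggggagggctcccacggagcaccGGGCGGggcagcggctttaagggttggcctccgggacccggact
The Igf1 window held 1 match to the AP-1 pattern, with A at its free position (TGAATCA), starting 37 bases before the start site. It also held 1 match to the PU.1 pattern, starting 60 bases before it. The Igfbp7 window held 4 GC boxes, and the Igfbp4 window held none of the 5 motifs. The 3 windows shared no motif of the set, and their G and C shares were 52.8%, 69.2% and 74.0%.

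Whether the response differed between cell types was tested directly. Between ECs and MΦs, the responses to 1wk WD were not called different for any of 10 members, beside 1.40% of 15603 genes, although 6 members had an unadjusted p below 0.05, beside 21.2% of all genes. For Igf1 the test gave a difference of responses of 0.09 ± 0.29 (95% interval −0.53 to 0.71). Irs2 differed by 1.21 ± 0.39 (adjusted p = 0.0988), Insr by −0.63 ± 0.18 (adjusted p = 0.0765) and Igfbp7 by −1.17 ± 0.39 (adjusted p = 0.111). The remaining differences were Igf2r 0.70 ± 0.30, Igf1r 0.11 ± 0.17, Igfbp3 −0.83 ± 1.09, Igfbp4 −0.57 ± 0.25, Igfbp5 −2.31 ± 1.18 and Igf2 −1.88 ± 0.73, and Igf2, which is 1 of the 6, was at 1 to 9 in MΦs, near the lowest score of the table. Without MΦ 1wk WD replicate 1 the Igfbp7 difference was −1.50 and was called (adjusted p = 0.0203). Between β cells and MΦs, no member and no gene of 16490 was called for a different response to 1wk Dox (0%), and 4 members had an unadjusted p below 0.05, beside 5.43% of all genes. Igf1r gave a difference of 1.73 ± 0.29 (adjusted p = 0.302) and Igf2r one of 1.57 ± 0.39 (adjusted p = 0.556). The Igf1r difference was called with quantile normalization (1.92, adjusted p = 0.00769), without β cell No Dox replicates 3 and 4 (1.51, adjusted p = 0.00635) and without replicates 1 and 2 (1.94, adjusted p = 0.0429), beside 0.0121%, 6.24% and 0.0544% of all genes. Without replicates 3 and 4, Igf1 (4.17, adjusted p = 0.0147) and Igfbp4 (4.11, adjusted p = 0.00546) were called as well. Igfbp5 gave −2.66 ± 1.06. The remaining one of the 4, Igf2 (−1.92 ± 0.72), was tested only through its β cell scores, since in MΦs it was at 1 to 2 in both groups, so its difference is no measure of a MΦ response. Igf1 (1.03 ± 2.02), Insr (−0.06 ± 0.31), Irs2 (−0.72 ± 0.47), Igfbp3 (−1.13 ± 2.95), Igfbp4 (0.47 ± 2.26) and Igfbp7 (−0.56 ± 1.04) had larger p-values.

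The rest of the pathway was followed in 55 further genes in 4 lists, of which 54 were in the table. They covered other ligands and binding proteins, binding protein proteases with their inhibitors, other receptors and adaptors, and the PI3K-Akt-FoxO pathway. Over time, none was called in β cells (50 tested, beside at most 0.0122% of all genes) or in MΦs (46 tested, beside at most 2.26% of all genes). In ECs 1 of 45 was called at 1wk WD (2.22%, beside 1.76% of all genes), Ccnd1, which encodes the cell cycle regulator cyclin D1. Ccnd1 was 6333, 5715, 6187 and 4867 without Dox, 10356 in the single 1wk Dox library and 4052, 3978, 2113, 2779 and 1748 at 1wk WD. It fell 2.07-fold (−1.05 ± 0.23, adjusted p = 0.0250), and its response differed from that of MΦs (−1.17 ± 0.29, adjusted p = 0.0414). The median change over the tested genes of the lists was −0.07 in β cells and −0.06 in MΦs at 1wk Dox and −0.08 in ECs at 1wk WD. Over all genes the corresponding medians were 0.03, 0.04 and 0.00.

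Without Dox, 12 of 50 tested pathway genes were higher in β cells than in ECs and 9 lower, 14 were higher in β cells than in MΦs and 7 lower, and 10 were higher in ECs than in MΦs and 9 lower. These shares of 42%, 42% and 38% stood beside 37.7%, 43.2% and 33.5% of all genes. Higher in β cells than in ECs were Ins1, Ins2, Igfals, Igf2bp2, Pappa, Pappa2, Stc2, Insrr, Irs1, Grb14, Foxo3 and Ccnd2, and lower were Igfbp1, Stc1, Socs1, Sos1, Pik3cb, Pik3r3, Inpp5d, Inppl1 and Foxo1. Higher in β cells than in MΦs were Ins1, Ins2, Igfals, Igf2bp2, Pappa, Pappa2, Stc1, Insrr, Irs1, Grb10, Grb14, Socs2, Pik3r3 and Ccnd2, and lower were Grb2, Ptpn1, Socs1, Socs3, Pik3cb, Pik3cd and Inpp5d. Higher in ECs than in MΦs were Igfbp1, Stc1, Irs1, Grb10, Socs2, Sos1, Pik3r3, Inppl1, Tsc2 and Foxo1, and lower were Ins2, Pappa2, Grb2, Ptpn1, Socs3, Pik3cb, Pik3cd, Pik3r2 and Foxo3. Irs1, the substrate related to Irs2, was 2803, 3966, 2501 and 5087 in β cells, 655 to 828 in ECs and 16 to 164 in MΦs. Unlike Irs2, which was low in ECs, Irs1 was thus lowest in MΦs, and ECs were 10.5-fold above them (adjusted p = 0.000485). Pik3r3, a regulatory subunit of PI3K, ranged from 9814 to 11638 in ECs, from 1307 to 2425 in β cells and from 73 to 233 in MΦs. Foxo1, a transcription factor restrained by Akt, was 4.01-fold higher in ECs than in MΦs (adjusted p = 4.59e-07). Grb10, an adaptor that dampens IGF-1 and insulin receptor signalling, was 45.6-fold higher in ECs than in MΦs (adjusted p = 2.12e-05).

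Genes whose pattern over all 32 libraries was most like each member were ranked by Pearson's r of the log2 score among 16968 genes. These values describe shared patterns over cell types, libraries and their mixtures of cells, and carry no test. For Igf1 the closest were Ifi203 (r = 0.948), Mndal (0.93) and Ifitm3 (0.929), and for Igf2 they were Fkbp9 (0.957), Bmp1 (0.954) and Tshz3 (0.950). Igf1r was closest to Anxa10 (0.923), 4732456N10Rik (0.913) and Fer1l6 (0.908), and Igf2r to Plekhh2 (0.983), Grlf1 (0.981) and Parva (0.981). Insr was closest to Dennd3 (0.969), Hmbox1 (0.969) and Ces2f (0.968), and Irs2 to Rnf150 (0.987), Emb (0.985) and Med12l (0.983). Among the binding proteins, Igfbp3 was closest to Ankrd29 (0.970), Tead4 (0.970) and Mal (0.959), and Igfbp4 to Fap (0.908), Fads3 (0.906) and Gypc (0.905). Igfbp5 was closest to Mapt (0.956), Ppp1r3c (0.950) and Mtap6 (0.949), and Igfbp7 to Mtap1a (0.984), Esam (0.982) and Col4a1 (0.981). Fap is a marker of activated fibroblasts, and Esam and Col4a1 are products of vascular cells.

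The annotated intervals of 6 members overlap a gene on the other strand. Igf2r overlaps Airn by 28354 bases, Igf2 overlaps Igf2as by 7124, Igf1 overlaps Gm16176 by 5117, Insr overlaps Gm16180 by 938, Irs2 overlaps 9530052E02Rik by 609 and Igfbp7 overlaps Polr2b and AC141469.5 by 85 each. Mir483 lies within Igf2 on the same strand, over 73 bases. Use of strand in counting is not stated in the sources used here, so reads of a member and its antisense partner cannot be told apart.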

How the data were processed

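Islet cells were sorted by the authors, and RNA was amplified and sequenced as paired-end libraries. The authors aligned reads with TopHat2 2.0 to mm9, per the submitters' processing notes, and normalised gene counts by TMM in Avadis NGS. The deposited scores are whole numbers with a minimum of 1, and how they were rounded is not stated in the sources used here. The annotation version is not given in the sources used here. The depth is unknown, so that neither counting intervals nor count models were applied. The table holds 38 sample columns, of which 32 were matched to samples by their labels and 6 were not used.

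A gene entered a fit when its mean score reached 20 in 1 or more groups of that fit, and was modelled as log2(score + 1) with limma 3.58.1 in R 4.3.3, with a trend in the prior variance. All time points of a cell type were in 1 fit, except that the single EC library at 1wk Dox was left out. Tests were two-sided, and p-values were adjusted by Benjamini and Hochberg over all genes tested. Differences between cell types without Dox were fitted with β cells, ECs and MΦs together. Differences between responses were fitted over the groups concerned. The script was tested on simulated data. No 2 libraries of a group were near identical. Python 3.11.15, pandas 2.3.3 and numpy 2.4.6 prepared the tables. Start sites and promoter sequences came from RefSeq (GRCm38.p6), in which 9 of 10 members had a window, and coordinates in mm9 came from the deposited table.

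The members and the marker and pathway lists were chosen with earlier results of these data known. The text gives all members in every comparison in which they were tested, names pathway genes that were called, the 3 genes most like each member and genes that overlap one. Alternatives varied the pseudocount, the filter, the scaling, the variance trend, the fold minimum, the adjustment, the samples in the fit and the replicate block, and left out each replicate in turn. Fits without libraries that stood apart and fits with a marker index as covariate were added after seeing the data.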

Additional observations from a re-analysis of the deposited data

Results flagged for a closer look

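Of 60 groups of 4 or 5 libraries examined, 4 held a library far from the others, and chance alone marks about 1 in 20. Igfbp7 in MΦs at 1wk WD was 438 in replicate 1 and 1047 to 1149 in the others. Igf2r in MΦs at 1wk WD was 253 in replicate 2 and 184 to 190 in the others. Igfbp3 in ECs without Dox was 20682 in replicate 3 and 15162 to 15919 in the others. Igf2 in MΦs without Dox was 2 in replicate 4 and 1 in the others, which is a difference of 1 score unit at the lowest value of the table.

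For 2 receptors, all 1wk Dox libraries lay above all No Dox libraries in β cells and below them in MΦs, 2 of the 20 such genes, of either direction, among 16490 (0.121%). With 2 MΦ libraries, separation in MΦs alone was met by 30.9% of genes. Igf1r differed from No Dox by 1.04 in β cells and by −0.69 in MΦs, and the difference of the responses was 1.73 (limma, adjusted p = 0.302). Igf2r differed by 0.54 and by −1.03, and the difference of the responses was 1.57 (adjusted p = 0.556). With all libraries and the reported scaling neither difference passed the threshold after adjustment, whereas that of Igf1r did with quantile normalization (1.92), without β cell No Dox replicates 3 and 4 (1.51) and without replicates 1 and 2 (1.94).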

How the results depend on the processing

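Of 275 counts of called members recomputed under alternative settings, 244 stayed within 1.5 times the reported count. Of 2685 member values, 2592 were labelled unchanged. That label required the same side of the threshold, and the same direction only where a value was called. Uncalled values that changed sign were thus counted as unchanged, as for Igf1 in β cells at 1wk Dox without No Dox replicates 1 and 2. For the single EC library it required a shift smaller than the SD of the No Dox libraries. The settings were other pseudocounts, filters, scalings and fold minimums, fits without the variance trend or on only the compared groups, the replicate block, and leaving out libraries. Quantile normalization called 1 member (Igf1r) in β cells at 1wk Dox, 2 in MΦs at 1wk WD and 1 (Igf1r) for the β cell against MΦ response, beside 0.0367%, 0.786% and 0.0121% of all genes. It moved the median of all genes by over 0.1 in β cells at 1wk WD (from 0.06 to −0.06) and in comparisons of β cells without Dox with ECs (from 0.07 to −0.16) and MΦs (from 0.12 to −0.04), and in no other comparison. With no filter on low scores, 0 members were called in ECs at 1wk WD (0.118% of all genes) and 1 in MΦs at 1wk Dox (0.516%). Without the variance trend each of these counts was 1 (0.536% and 0.346% of all genes). A minimum mean score of 200 called 2 in MΦs at 1wk WD (0.98% of all genes), and no fold minimum called 4 in ECs (3.9% of all genes). Unadjusted p called 3 in β cells at 1wk Dox, 5 and 3 in MΦs at 1wk Dox and 1wk WD, 1 in MΦs between 1wk WD and 1wk Dox, 3 for the EC against MΦ response and 4 for the β cell against MΦ response, beside 4.04%, 6.55%, 4.97%, 1.82%, 9.04% and 3.18% of all genes in the same order.

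Most libraries of the same replicate number did not vary together, since only 6 of 32 same-number pairs correlated above 0.1 (range −0.47 to 0.37). Between ECs and MΦs without Dox, the correlations were 0.167, 0.371, 0.055 and −0.106 for replicates 1 to 4. Whether same-number libraries shared a pool of islets was not tested. The replicate block left 0 members called in MΦs at 1wk Dox (0.02% of all genes), where the groups share 1 number, and changed no other count by over 1.5 times. Leaving out single replicates gave 0 to 3 called members in ECs at 1wk WD, 0 to 3 in MΦs at 1wk Dox, 1 to 2 in MΦs at 1wk WD and 0 to 1 for the EC against MΦ response. Where this left 1 library in a group, it was assumed to vary like the others.

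Among settings chosen after seeing the data, β cells without No Dox replicates 3 and 4 gave 3 called members at 1wk Dox, 3 at 1wk WD, 7 against MΦs without Dox and 3 (Igf1, Igf1r and Igfbp4) for the response against MΦs, beside 7.36%, 8.74%, 49.3% and 6.24% of all genes. Without replicates 1 and 2 that response gave 1 (Igf1r, 0.0544%), and Igfbp4 in β cells reversed to 2.27 against ECs and 2.27 against MΦs, whereas without replicates 3 and 4 it was called lower (−5.01 and −5.00). MΦs without No Dox replicates 2 and 4 gave 2 at 1wk WD (2.34%). The pericyte and fibroblast index as covariate gave 1 in β cells at 1wk Dox (2.15%) and 0 in ECs (0%), and the endothelial index gave 0 in MΦs at 1wk Dox (0.0133%). The causes were not tested. Depth is unknown and limits Igf2 and Igfbp3 in MΦs, whose scores were near the lowest of the table.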

Other observations

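Some genes of the pathway differed widely between the cell types. Insrr, which encodes a receptor of the insulin receptor family, was 6714, 5142, 2834 and 1921 in β cells without Dox, at most 4 in ECs without Dox and 1 to 66 in MΦs without Dox. Igfbp1 was at the lowest score of 1 in all β cell and MΦ libraries, and was 40, 12, 18 and 20 in ECs without Dox, 2 in the single 1wk Dox library of ECs and 1 to 34 in those of 1wk WD. Stc1, which encodes an inhibitor of binding protein proteases, was 6016 to 8790 in ECs without Dox, 12553 in the single 1wk Dox library and 5607 to 9096 after withdrawal. In β cells Stc1 was 79, 31, 255 and 1166 without Dox and 1627, 571, 933, 1050 and 356 at 1wk Dox. Pappa, a protease that cleaves binding proteins, was 1841 to 12606 in β cells without Dox and at most 28 in ECs and 140 in MΦs without Dox.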
